A study of Mus musculus with 25 samples.

Results

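H19 and 7 other imprinted genes (Igf2, Igf2r, Cdkn1c, Grb10, Dlk1, Peg3 and Mest) were followed on 25 arrays of mouse thymocytes. The genes were chosen as canonical imprinted genes, and H19 was also selected on its measured level per array, which was high on nearly every array and low on 1. H19 is therefore described without a test. The array carried 17 probes for these 8 genes among 46237 probes. Each gene had at least 1 probe that was detected on 3 or more arrays, and the 8 were among 15533 genes tested.

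The series compared early thymocytes that lacked CD4, CD8 and CD3 on their surface and were positive for CD25, a subunit of the receptor for IL-2. Such cells first carry CD44 (TN2) and then lose it (TN3), when rearrangement of the beta chain gene of the T cell receptor takes place. The young group (n = 6) held TN2/3 cells from the C57BL/6 hosts themselves, marked by CD45.2. In the group called old with competition (n = 6), TN2/3 cells derived from B6/Ly5.1 donors, marked by CD45.1, had been in wild-type hosts termed competitive. In the group called old without competition (n = 9), the donors were F1(WB x B6/Ly5.1) and the non-competitive hosts were Rag2-/-γc-/-KitW/Wv mice, which lack Rag2 and the common cytokine receptor chain and carry mutant Kit. For 1 of these 9 samples the labels give no cell type. TN2 cells (n = 2, CD25+CD44+) and TN3 cells (n = 2, CD25+CD44-) came from wild-type B6/Ly5.1 mice. No treatment agent is named, and ages, pooling of animals and the time between transfer and sampling are nowhere stated in the labels. The old and young groups thus differ in strain background as well as in origin, and these cannot be told apart.

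Between 41.1% and 50.1% of the probes were detected per array, with the lowest shares in old cells without competition (41.1% to 45.7%) and the highest in young cells (46.7% to 50.1%). Chips 2 and 4 each carried 3 young arrays and 3 arrays of old cells with competition. The 9 arrays of old cells without competition were on chips 1 and 5, so for them chip and group cannot be told apart in a comparison with either of those groups. TN2 and TN3 had 1 array each on chips 3 and 5. Of the defining markers of this stage, Thy1, Cd3e and Cd3g were detected on all 25 arrays. Il2ra, which encodes CD25, was dim, and it was not detected on either TN3 array. Over the whole transcriptome, array 6 of the old group with competition stood apart: 2320 of 15533 genes (14.9%) lay over 1 log2 unit from the median of the other 5 arrays, against 100 to 167 genes on each of those. Differences and list counts that use this group are therefore also given without array 6.

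Imprinted genes are expressed mainly from the allele of 1 parent. H19 and Igf2 are neighbours on mouse chromosome 7 and share enhancers. On the maternal allele the factor CTCF binds an unmethylated control region between them and H19, a long non-coding RNA, is transcribed; on the paternal allele this region is methylated and Igf2, a fetal growth factor, is transcribed. H19 is abundant in the fetus and is lowered after birth in most tissues. It has been described in long-term blood stem cells, where its maternal allele restrains Igf2 signalling. IGF2R is maternally expressed and carries IGF2 to the lysosome. The arrays do not separate alleles, so each value is the sum over both.

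H19 also contains a microRNA precursor in its first exon, and Igf2 contains one in an intron. The mature sequences are shown because H19 RNA is the source of the first pair. They come from RefSeq on GRCm38.p6, are written 5′ to 3′, and have the seed (bases 2 to 8) in capitals.
mmu-miR-675-5p: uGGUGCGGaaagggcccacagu
mmu-miR-675-3p: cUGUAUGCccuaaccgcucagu
mmu-miR-483-5p: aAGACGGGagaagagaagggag
mmu-miR-483-3p: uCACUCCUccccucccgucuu
The miR-675 pair lies at chr7:142577112-142577133 and chr7:142577078-142577099 on the minus strand, and the miR-483 pair at chr7:142654968-142654989 and chr7:142654932-142654952 on the same strand. The 4 seeds differ from each other, and 0 other mouse microRNAs among the 1679 mature sequences of that table share one of them. No array probe was named for these microRNAs, so the values below are those of the host transcripts.

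H19 was detected in every group, at levels from close to the detection limit (array 6 of old cells with competition and the lower TN2 array) to far above it. Values are log2 of the background-corrected, quantile-normalized intensity, on which the dimmest detected probes lie near 4.2. Of its 2 probes, the brighter was detected on all 25 arrays. In young cells it stood at 10.18, 10.05, 9.56, 9.94, 9.57 and 9.64 on arrays 1 to 6 (mean 9.82 ± 0.27, SD, n = 6). The 6 young arrays were close to each other.

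In old cells with competition the brighter H19 probe stood at 10.14, 10.78, 11.01, 10.37, 10.52 and 4.48 (9.55 ± 2.50, SD, n = 6). Arrays 2 to 5 lay above all young arrays, array 1 lay inside their range, and array 6 lay close to the detection limit. Without array 6 the mean was 10.56 ± 0.34 (SD, n = 5). Over old cells without competition the lowest, median and highest of 9 arrays were 10.22, 10.80 and 11.44 (10.85 ± 0.42, SD, n = 9), so that all 9 lay above all 6 young arrays on this probe. Of all genes, 3.2% had groups that did not overlap here. Since H19 was chosen on its levels, this share is no test of it.

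The control thymocytes differed by stage. The TN2 arrays were at 7.26 and 5.46, and the TN3 arrays at 9.48 and 9.66. Both TN3 values lay above both TN2 values, on chip 3 by 4.20 log2 units and on chip 5 by 2.22; with 2 arrays a group, 37.3% of all genes did not overlap. Every array but array 6 of the young and old groups lay above both TN2 arrays. Of all genes, 15% did not overlap between young cells and TN2, and 11.8% between old cells without competition and TN2. On the deposited linear scale, before normalization, this probe had a median intensity of 145 in TN2, 553 in TN3, 1209 in the young group, and 1949 and 1660 in the old groups with and without competition.

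The dimmer H19 probe was detected on 24 of 25 arrays and had its group means in the same order once array 6 was set aside, except that young cells (8.01) and TN3 (8.07) changed places. It was at 8.41, 8.72, 7.78, 8.76, 6.51 and 7.85 in young cells. Old cells with competition were at 9.13, 9.67, 10.23, 8.71, 8.91 and 4.11, the last of which, array 6, was the array without detection. Without competition it ran in old cells from 8.75 through a median of 10.13 to 10.89, and the TN2 and TN3 arrays were at 5.68 and 4.60, and at 8.42 and 7.73. The lowest array of old cells without competition (8.75) lay just below the highest young array (8.76), so on this probe these groups overlapped. Young array 5 was low on this probe and not on the brighter one.

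**Figure D1:**
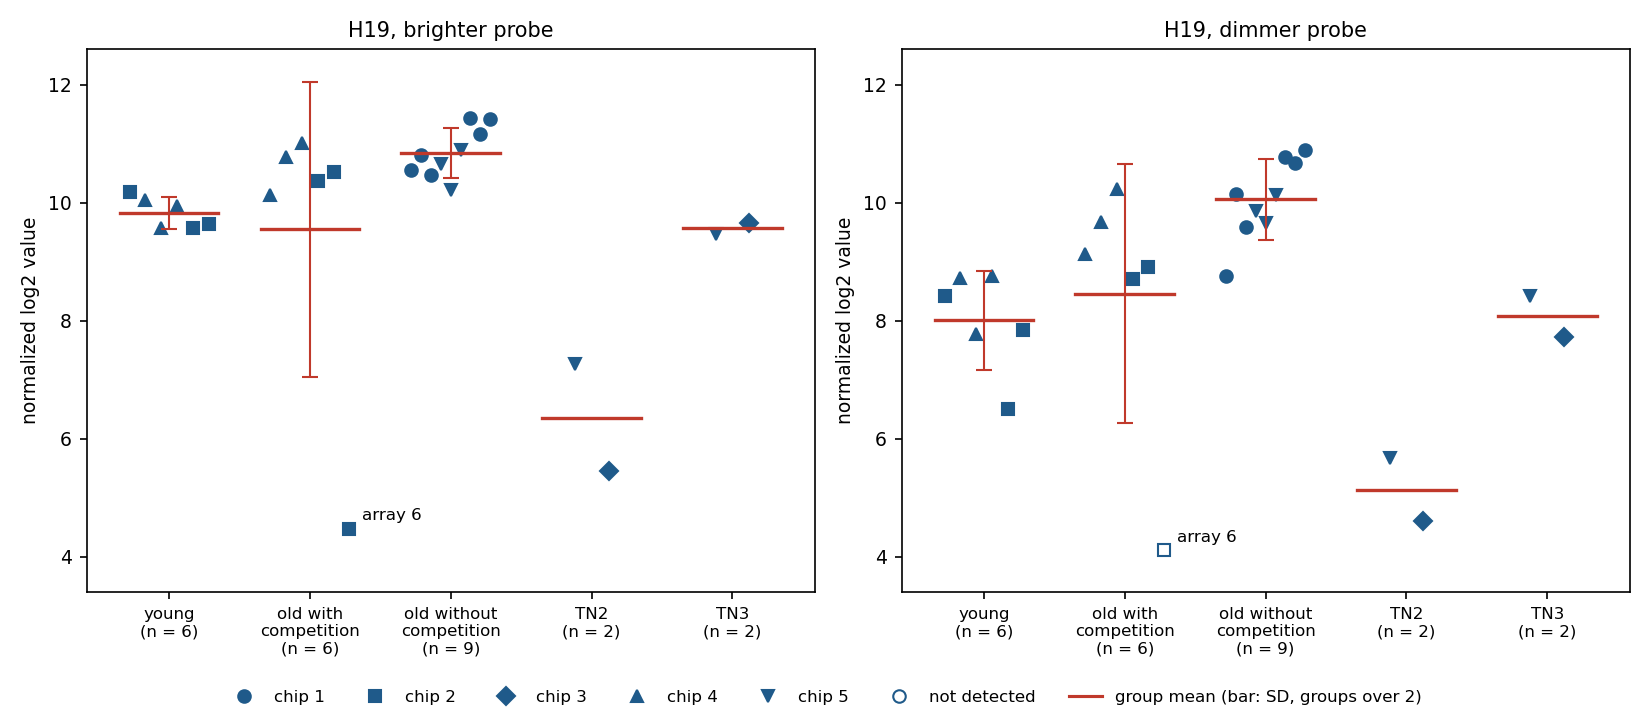
Normalized log2 value of the brighter (left) and dimmer (right) H19 probe on each of 25 arrays, by group. Marker shapes give the chip, open markers an array without detection, red lines the group mean and red bars the SD of groups with over 2 arrays; array 6 of old cells with competition is at 4.48 and 4.11, and the TN2 arrays lie below every array other than that one.

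As differences of group means from the model, H19 in old cells with competition minus young cells was -0.27 ± 0.71 (log2 ± SE). The difference was -1.34 within chip 2, which held array 6, 0.79 within chip 4, and 0.74 ± 0.26 over both chips without array 6. With array 6 kept, the sign also depended on the processing: it was 0.03 with no background correction, 0.02 in the deposited log2 table, 0.09 with the mean of the probes and 0.53 with array weights. Old cells without competition minus young cells gave 1.02 ± 0.65, and the same group minus old cells with competition 1.30 ± 0.65, or 0.28 ± 0.24 without array 6. TN3 minus TN2 was 3.21 ± 1.23. The model shares its estimate of the spread over all groups, and array 6 widens it. The SE is therefore wide also for comparisons that do not use the group of array 6. By group, the SD of H19 was 0.42 in old cells without competition, 0.27 in young cells, 0.13 in TN3 and 1.27 in TN2. No p is given for H19, since its levels were a reason for choosing it.

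Array 6 was lower than the median of the other 5 arrays of its group by 65.8-fold on the brighter probe (4.48 against 10.52, a difference of -6.04). On the deposited scale the intensities were 92.1 on array 6 and 2057 at that median. The dimmer probe, not detected on array 6, differed by -5.02 log2 units (83.4 against 834 on the deposited scale), and no fold is given for it. Among the 15533 genes H19 had the lowest difference of array 6 from the rest. The brighter probe was only 0.23 log2 units above the lowest detected signal of that array, so both values are near the floor.

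Other genes moved on array 6 too, and the values are given here because H19 is among them. The 6 measured markers of CD4 and CD8 double positive thymocytes, a later stage than TN3, averaged 8.11 there and 6.63 to 6.84 on the other 5 arrays. Cd4 was at 8.86, Rag1 at 11.1, Themis at 7.88 and Ccr9 at 6.16, whereas Cd8b1 was at 6.54 and below its group mean of 7.57. The 5 measured NK and gamma-delta T cell markers averaged 4.43, against 5.17 to 5.79 on the rest. The early progenitor markers averaged 4.21, with 1 of 8 detected, and thymic stroma markers 4.83, inside the 4.79 to 4.95 of the other arrays. The part of these cell types in the H19 value was not tested. In bulk RNA, fewer cells with H19 and less H19 per cell cannot be told apart.

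Of 44 measured imprinted genes, 6 (13.6%) lay over 1 log2 unit from the rest on array 6, a share close to the 14.9% of all genes. H19 is among the 6 by choice, since its low value on this array was a reason for choosing it. H19 and Commd1 (6.04 against a median of 7.56) were lower. The higher ones were Atp10a (7.57 against 5.03), Tspan32 (6.94 against 4.47), Cd81 (7.89 against 6.37) and H13 (8.52 against 7.15). Igf2r was higher on array 6 by 0.86 and Cdkn1c by 0.96, while Igf2 was lower by 0.93. The median over the imprinted genes was 0.02.

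**Figure D2:**
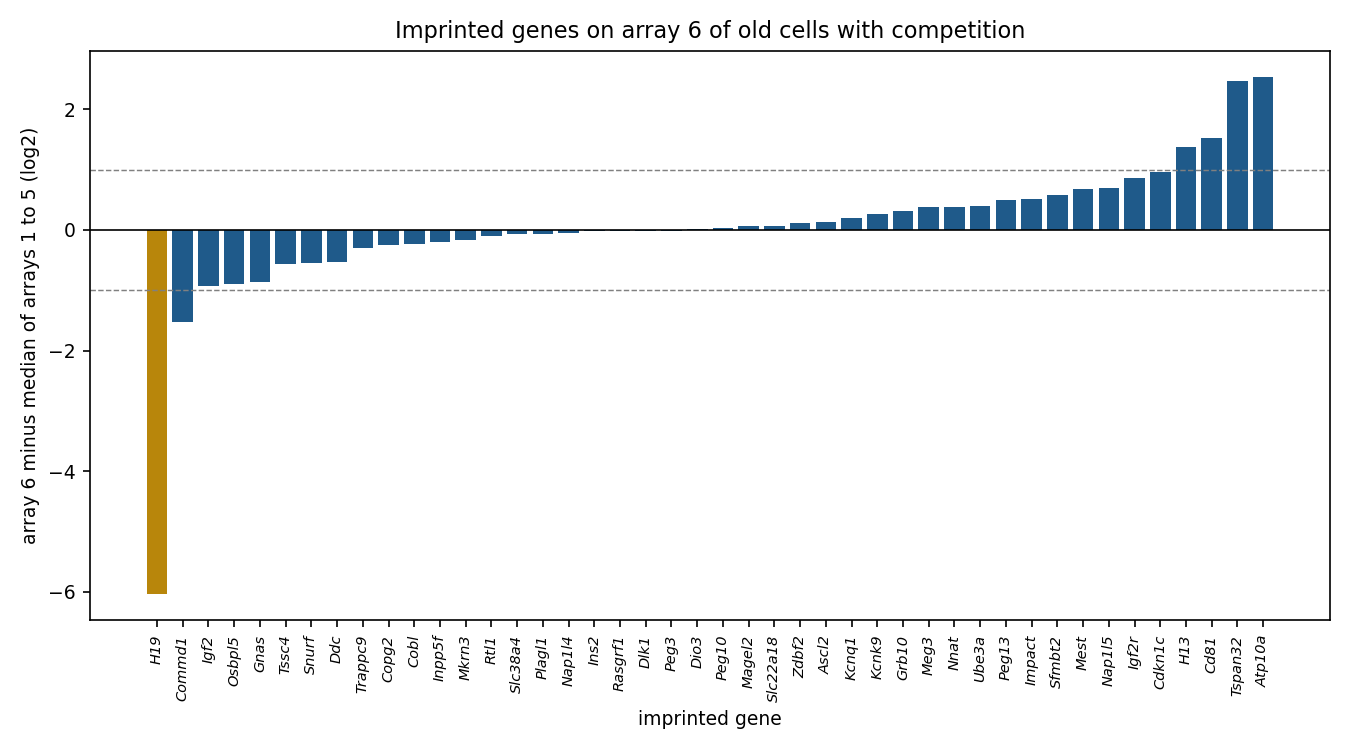
Difference between array 6 and the median of arrays 1 to 5 of old cells with competition, in log2 units, for the 44 measured imprinted genes in rising order. Dashed lines mark 1 log2 unit either way; H19 (gold) is at -6.04 and the other bars run from -1.52 for Commd1 to 2.54 for Atp10a.

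Markers of other cell types also differed in level between young and old cells. The 8 measured early progenitor markers averaged 5.01 to 5.44 on the young arrays, 4.21 to 4.50 with competition and 4.34 to 4.68 without competition. For the 8 myeloid and dendritic markers these ranges were 5.09 to 5.61, 4.27 to 4.44 and 4.22 to 4.66, so that for both lists no array of either old group reached the young range. The 6 erythroid markers ran from 4.90 to 5.50 in young cells, 4.21 to 4.83 with competition and 4.27 to 5.37 without competition, and the 5 NK and gamma-delta T cell markers from 6.01 to 6.41, 4.43 to 5.79 and 5.13 to 6.12.

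Among single markers, Kit, a receptor of early progenitors, had group means of 6.90, 4.62 and 4.78 in that order. Hbb-b1, a globin gene, was at 8.53, 4.87 and 5.34. Mpo, a myeloid peroxidase, was at 6.15, 4.22 and 4.11 and was not detected on any array of old cells without competition. Some dim erythroid markers were instead higher in old cells without competition than in young cells. They were Hba-a1 (4.75 against 4.36), Alas2 (4.36 against 4.14), Klf1 (4.73 against 4.49) and Epor (4.40 against 4.26). The dim progenitor markers Flt3, Cd34, Meis1 and Hoxa9 and the myeloid marker Csf1r were not lower there either. Between the control stages, the progenitor marker averages were 4.52 and 4.72 on the TN3 arrays and 5.59 and 5.70 on the TN2 arrays. The part of these cell types in the differences of H19, Igf2, Igf2r and the listed genes below was not tested.

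Igf2, the ligand next to H19, had 1 probe, which was dim. It was not detected on any of the 6 young arrays (4.29, 4.33, 4.29, 4.16, 4.22 and 4.21) or on the TN2 (4.14 and 4.26) and TN3 (4.16 and 4.28) arrays. Old cells with competition were at 4.78, 5.94, 4.92, 5.30, 5.27 and 4.34, with detection on arrays 1 to 5 and not on array 6. Array 6, the array with low H19, was the 1 array of either old group on which Igf2 was not detected. Old cells without competition had detection on 9 of 9 arrays, with a lowest value of 4.58, a median of 5.47 and a highest of 6.50.

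All values of old cells without competition were above all young values, and Igf2 rose in that comparison. The difference was 1.26 ± 0.23 (log2 ± SE, limma, adjusted p = 0.000809, n = 9 against 6). Because no young array had detection, the fold is a bound: at least 2.36-fold higher, taking for each young array the higher of the lowest detected signal and the signal of the Igf2 probe. The size depended on the background correction: the difference was 0.40 with none and 0.41 in the deposited log2 table, where it was still called (adjusted p = 0.00389 and 0.00392). Of all genes tested, 8.93% were called in this comparison, 3.17% as higher, and 3.2% had groups that did not overlap. The call held in each fit that left out 1 array, with an adjusted p of at most 0.00255.

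Igf2 in old cells with competition was 0.84 ± 0.25 above young cells (adjusted p = 0.0747, n = 6 against 6, at least 1.77-fold), which did not pass 0.05; it was 0.25 both with no background correction and in the deposited log2 table. The groups did not overlap, but only just, with array 6 at 4.34 and the highest young array at 4.33. The background was 2.92% of genes called and 2.65% with groups that did not overlap. By chip, the values were 0.73 (chip 2) and 0.96 (chip 4). With array 6 left out it was 0.99 and passed (adjusted p = 0.0195), so the call depended on that array.

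The 2 old groups were not shown to differ in Igf2 (0.42 ± 0.23, 95% interval -0.06 to 0.89, adjusted p = 0.455; 1.24% of genes were called), or 0.27 (adjusted p = 0.671) without array 6. Against TN3, Igf2 in old cells without competition was at least 2.34-fold higher (1.29 ± 0.34, adjusted p = 0.0435; 2.36% of genes called), and against TN2 the difference was 1.31 ± 0.34 (adjusted p = 0.0241; 4.87% of genes called). These comparisons share the same 9 arrays. TN3 and TN2 were 0.02 apart (adjusted p = 0.997), both without detection.

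**Figure D3:**
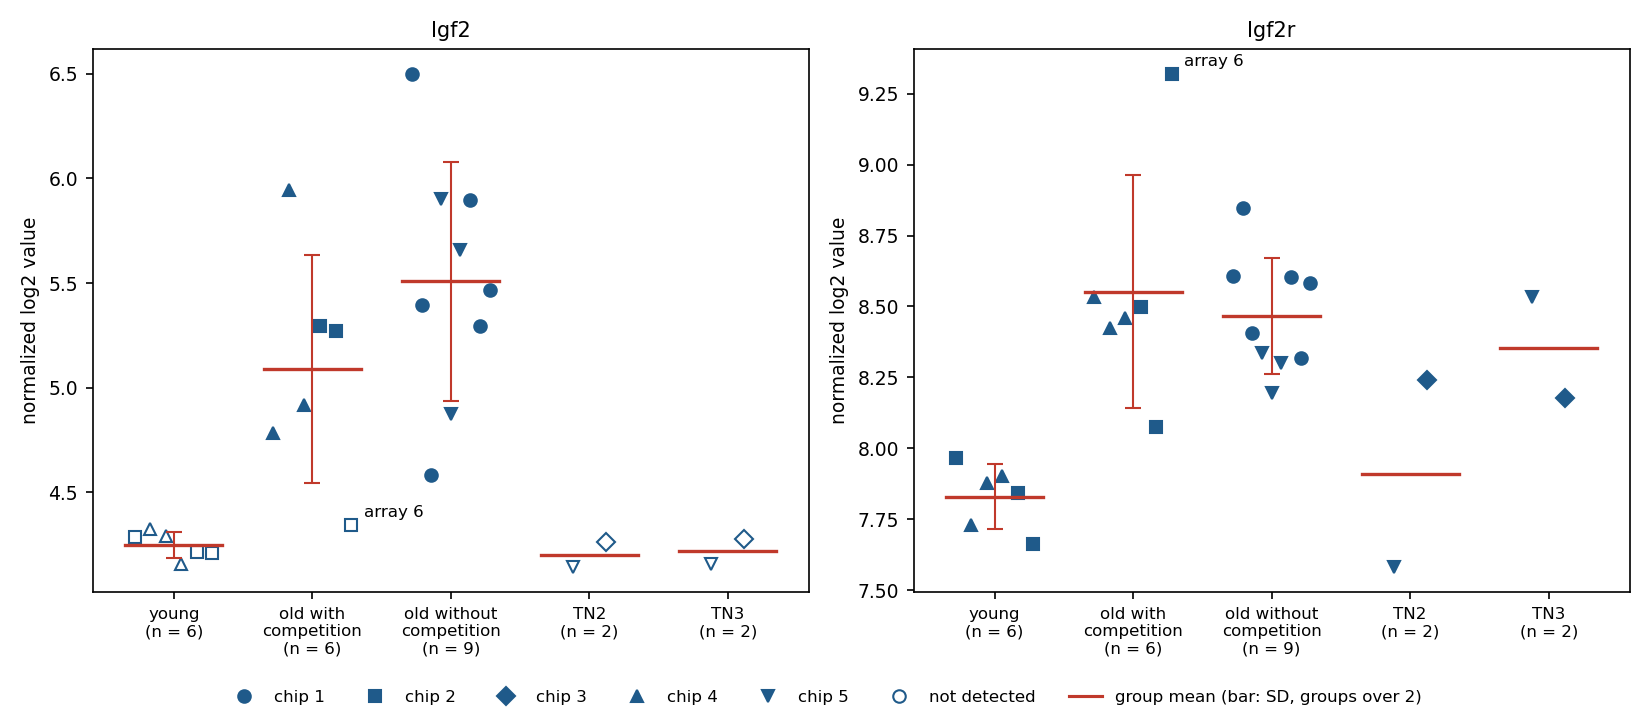
Normalized log2 value of Igf2 (left) and Igf2r (right) on each array by group, with a separate vertical scale for each gene. Igf2 has open markers, meaning no detection, on all young, TN2 and TN3 arrays and on array 6; Igf2r was detected on all arrays and its young arrays, 7.66 to 7.97, lie below all arrays of both old groups.

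Igf2r, which encodes the cation-independent mannose 6-phosphate receptor, had 2 probes, and both were detected on all 25 arrays. The brighter probe read 7.97, 7.73, 7.88, 7.90, 7.84 and 7.66 in young cells (7.83 ± 0.11, SD, n = 6). Old cells with competition were at 8.53, 8.42, 8.46, 8.50, 8.07 and 9.32 (8.55 ± 0.41, SD, n = 6; 8.40 ± 0.19 without array 6). Here array 6 was the highest array of all, while its H19 was the lowest. Old cells without competition ran from 8.20 through a median of 8.41 to 8.85 (8.47 ± 0.21, SD, n = 9), and all arrays of both old groups were above all young arrays.

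Igf2r rose in old cells with competition by 0.72 ± 0.16 (log2 ± SE, limma, adjusted p = 0.00904, n = 6 against 6), where 0.418% of genes were called as higher. Within chip 2 it was 0.81 and within chip 4 it was 0.64. The call held without array 6 and without each other array in turn, with differences of 0.57 to 0.82. In old cells without competition it was higher than in young cells by 0.64 ± 0.14 (adjusted p = 0.00599, n = 9 against 6). That call depended on the scaling: with every array scaled to a common median in place of quantile normalization, the difference was 0.09 (adjusted p = 0.723), in a fit where the median of all genes was -0.17 in place of 0.02, and relative to that median Igf2r was 0.26 higher. Both comparisons use the same young arrays.

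The 2 old groups were not shown to differ in Igf2r: -0.09 ± 0.14, with a 95% interval of -0.38 to 0.21 (adjusted p = 0.848), or 0.07 (adjusted p = 0.858) without array 6. The TN2 arrays were at 7.58 and 8.24 and the TN3 arrays at 8.53 and 8.18, a difference of 0.44 ± 0.27 (adjusted p = 0.606) that was 0.95 on chip 5 and -0.07 on chip 3. The dimmer Igf2r probe averaged 5.17 ± 0.33 in young cells, 5.65 ± 0.24 in old cells with competition and 5.96 ± 0.42 in old cells without competition. Its ranges overlapped between young and both old groups.

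The other 5 members lay near the detection limit. Grb10 encodes an adaptor that restrains insulin and IGF receptor signalling and was detected on 22 of 25 arrays, between 4.15 and 5.06. Mest, a hydrolase-like protein of mesoderm, was detected on 11 arrays, and Cdkn1c, the CDK inhibitor p57, on 9. Dlk1, a Notch-like transmembrane protein of fetal tissue, was detected on 7 arrays and the zinc finger gene Peg3 on 5. None of the 5 passed in old with competition against young, old without competition against young, old without against old with competition, or TN3 against TN2. By limma, 0 of 5 passed in each of these 4, and at an unadjusted p below 0.05 Cdkn1c in old cells without competition against young cells was the 1 such case. Their differences ran from -0.40 to 0.37 log2 units and their adjusted p from 0.208 to 0.997. At this signal a difference may have gone undetected, since the offset used draws dim values together.

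Cdkn1c had the smallest adjusted p among the 5, in old cells without competition against young cells (0.37 ± 0.17, adjusted p = 0.208). It was detected on 1 of 6 young arrays, where it was at 4.13, 4.10, 4.09, 4.15, 4.35 and 4.21. Old cells with competition were at 4.20, 4.11, 4.15, 4.18, 4.36 and 5.14, with detection on arrays 5 and 6. Old cells without competition had detection on 6 of 9 arrays, from 4.07 through a median of 4.45 to 5.23, and no TN2 or TN3 array had detection. The groups overlapped. The 6 arrays of old cells without competition on chip 1 averaged 4.69 and the 3 on chip 5 averaged 4.25, so the level also went with the chip.

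Dlk1 was detected on 4 of 6 young arrays (4.36, 4.28, 4.40 and 4.55, with 4.11 and 4.12 on the other two) and on 0 of 6 arrays of old cells with competition (4.12 to 4.23). Among old cells without competition 8 arrays were at 4.13 to 4.32 and array 3 was at 5.86. Mest was detected on 5 of 6 young arrays (4.30 to 4.62), on 2 of 6 in old cells with competition (4.76 on array 3 and 4.93 on array 6) and on 3 of 9 in old cells without competition, with array 8 at 5.21. One TN2 array had Mest at 4.95 and the other at 4.15.

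Peg3 never exceeded 4.60. It was detected on 1 young array (4.46), 1 array of old cells with competition (4.41), 2 of old cells without competition (4.60 and 4.42) and 1 TN3 array (4.44). Its 2 further probes were detected on 0 arrays. Grb10 averaged 4.51 ± 0.14 in young cells, 4.54 ± 0.21 in old cells with competition, 4.62 ± 0.26 in old cells without competition and 4.64 and 4.45 as the means of TN2 and TN3. Its 2 other probes were detected on 4 arrays and on 1, the second probe of Dlk1 on 0, and the 2 other Mest probes on 4 and 1.

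**Figure D4:**
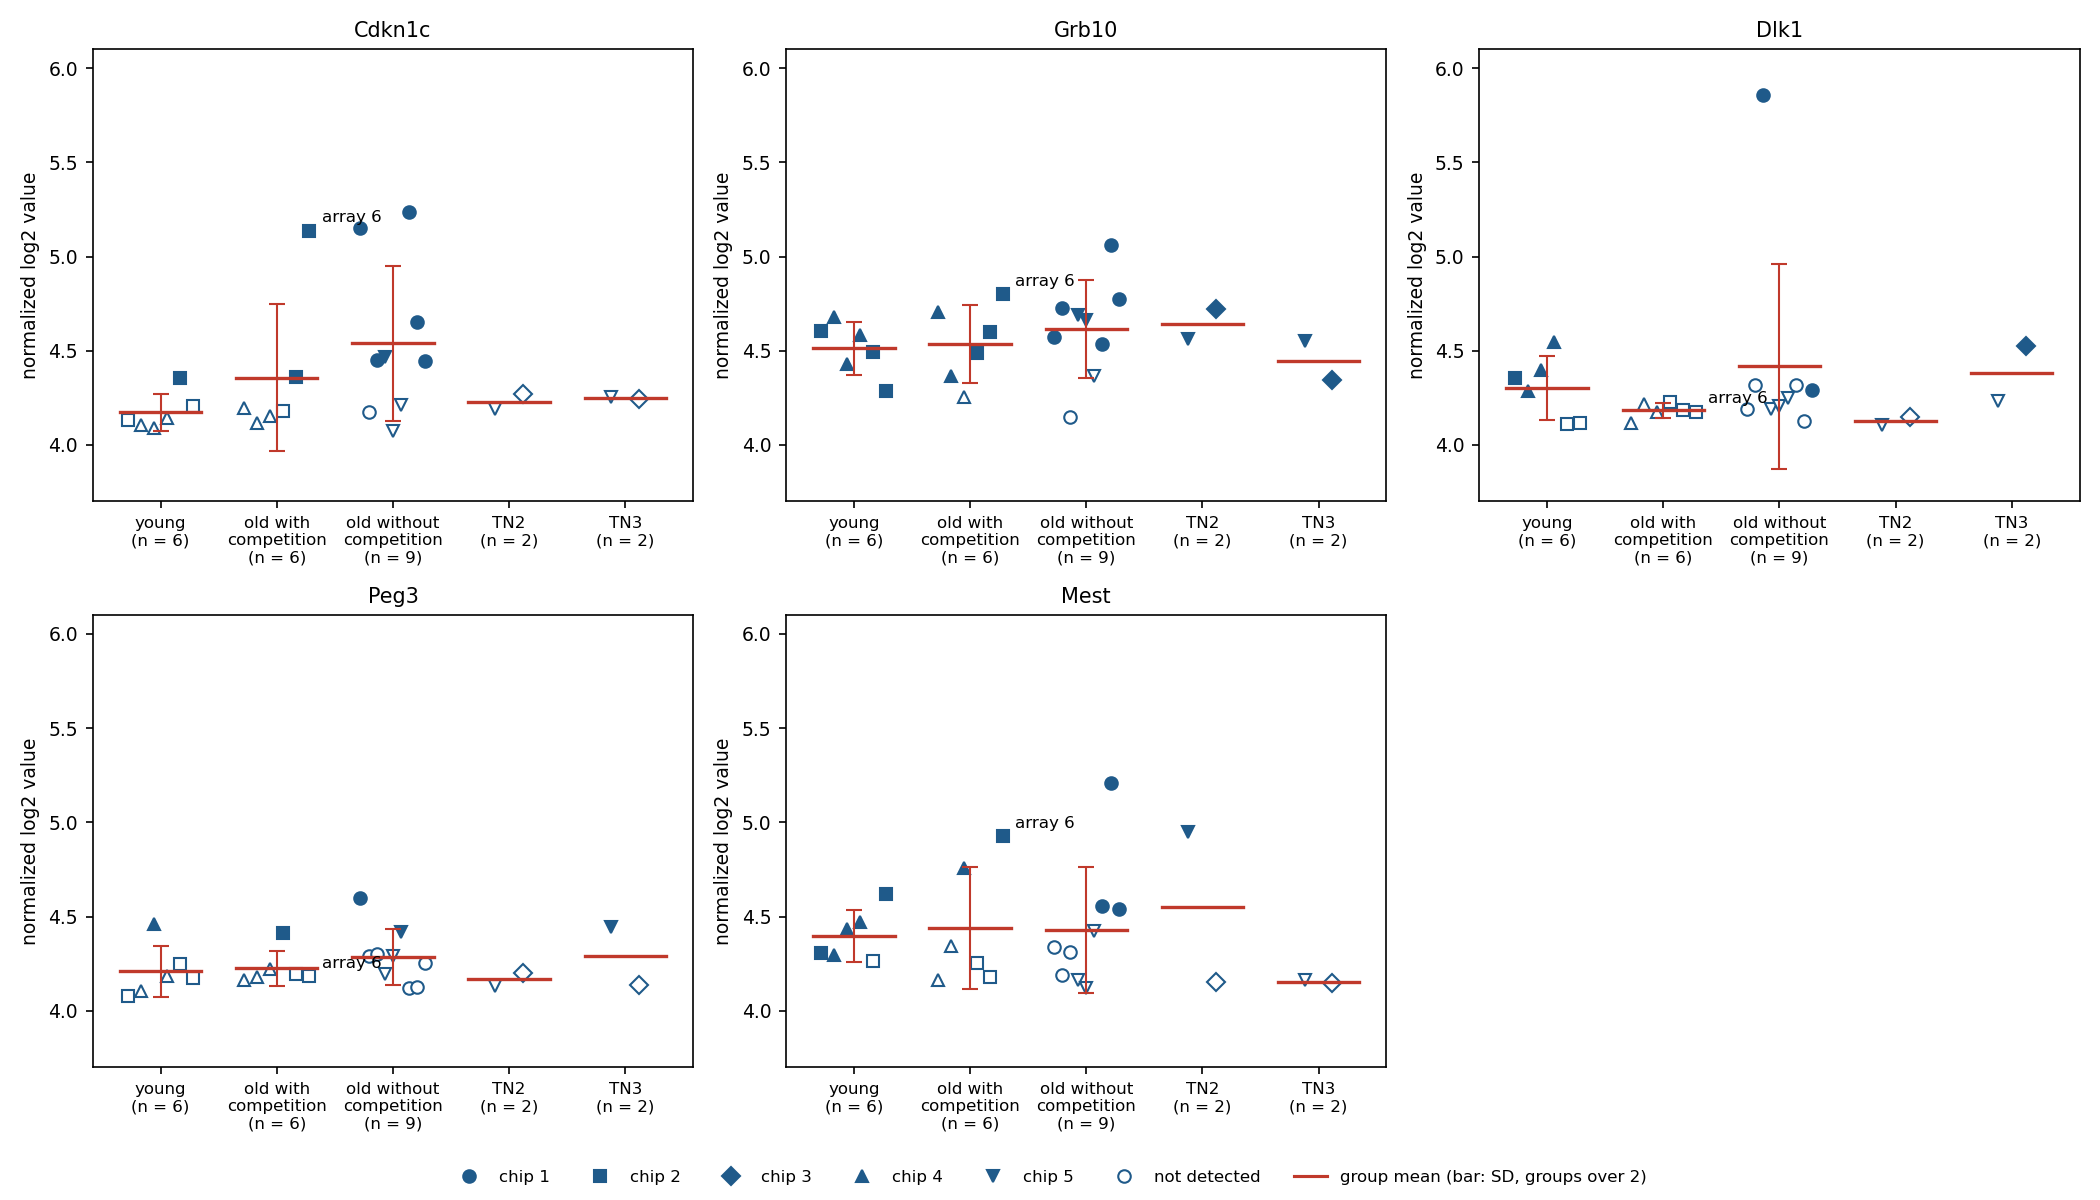
Normalized log2 values of Cdkn1c, Grb10, Dlk1, Peg3 and Mest on each array by group, on 1 common vertical scale, with open markers where the probe was not detected. Most points lie below 4.7; the highest are Dlk1 at 5.86, Cdkn1c at 5.23 and Mest at 5.21, each on 1 array of old cells without competition.

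The order of the 5 groups by mean level differed between members. H19 ran upward from TN2 (6.36) through old cells with competition (9.55), TN3 (9.57) and young cells (9.82) to old cells without competition (10.85), and without array 6 old cells with competition would stand next to the top at 10.56. Igf2 ran from TN2 (4.20), TN3 (4.22) and young cells (4.25) to old cells with (5.09) and without competition (5.51). Igf2r was lowest in young cells (7.83), followed by TN2 (7.91), TN3 (8.35) and old cells without (8.47) and with competition (8.55). Of the members other than H19, none had neighbouring groups in this order that differed at an adjusted p below 0.05. Of all genes tested, the share called was 1.17% for TN3 against TN2, 1.47% for young cells against TN2, 3.67% for young cells against TN3, and 5.29% and 3.78% for old cells with competition against TN2 and TN3. For Igf2 the widest of these steps was from young cells to old cells with competition.

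The wider set of imprinted genes was read for context, from canonical lists of 36 maternally and 32 paternally expressed genes. Whether the listed genes are expressed from 1 allele in these thymocytes was not measured. Of the 68 listed genes, 61 had a named probe and 44 had a probe that was kept, 12 of them detected on all 25 arrays and 18 on 12 or fewer. Without H19, 1 of 21 maternally expressed genes rose in old cells with competition against young cells (Igf2r) and 0 fell, and 0 of 22 paternally expressed genes changed. In old cells without competition, 1 of 21 maternal genes rose (Igf2r) and 1 fell (Osbpl5), and 2 of 22 paternal genes rose (Igf2 and Snurf) and 1 fell (Ddc). Without array 6, Igf2r rose and Tspan32 fell among the maternal genes in old cells with competition (2 of 21, 9.52%), and Igf2 rose among the paternal genes (1 of 22, 4.55%), beside 4.14% of all genes. In the other 2 comparisons 0 of 21 and 0 of 22 passed with limma, with 1 gene of the maternal list and 0 of the paternal list at an unadjusted p below 0.05 between the old groups, and 1 of each in TN3 against TN2. Between the old groups both counts were also 0 without array 6. In old cells without competition against young cells the shares called, 9.52% and 13.6% of the lists, stand beside 8.93% of all genes, and with competition 4.76% and 0% beside 2.92%.

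The medians of the lists were near 0. In old cells without competition against young cells the maternal list had a median of 0.00 and the paternal list of 0.08, against 0.02 for all genes. With competition they were -0.01 and 0.02, against 0.00 for all genes, and both were 0.01 without array 6. Most imprinted genes were thus not shown to differ. Nap1l4, which encodes a nucleosome assembly protein and lies in the same region as H19, had group means between 10.34 and 10.57.

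Osbpl5, a lipid transfer protein from the same region of chromosome 7 as H19, averaged 7.32 ± 0.36 (SD, n = 6) in the young group, against 6.61 ± 0.47 (n = 6) with competition and 6.36 ± 0.47 (n = 9) without competition. The last differed from young cells by -0.96 ± 0.22 (adjusted p = 0.00622), and old cells with competition by -0.71 ± 0.24 (adjusted p = 0.135), or -0.55 ± 0.23 without array 6 (adjusted p = 0.220). Snurf, from the Prader-Willi region, was not detected on any young, TN2 or TN3 array. It was detected on 5 of 6 arrays of old cells with competition (4.72 ± 0.55, or 4.83 ± 0.55 without array 6) and 7 of 9 without competition (5.09 ± 0.80).

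With the processing used here, Snurf was at least 1.81-fold higher in old cells without competition than in young cells, a bound for missing detection only, as for Igf2. The size depended on the processing, with log2 differences of 0.32 to 0.99 over the alternatives. In the main fit the difference was called (0.96 ± 0.29, adjusted p = 0.0381). This call was lost in 10 of 15 fits that left out 1 array: each of the 6 young arrays, and arrays 3, 5, 6 and 8 of old cells without competition (adjusted p up to 0.0706). Ddc, the aromatic L-amino acid decarboxylase, fell from 5.01 ± 0.41 in young cells to 4.41 ± 0.21 in old cells without competition (-0.60 ± 0.16, adjusted p = 0.0174). Its call was lost without young array 4 (-0.45, adjusted p = 0.0510) and with the mean of its probes (-0.38, adjusted p = 0.0656).

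**Figure D5:**
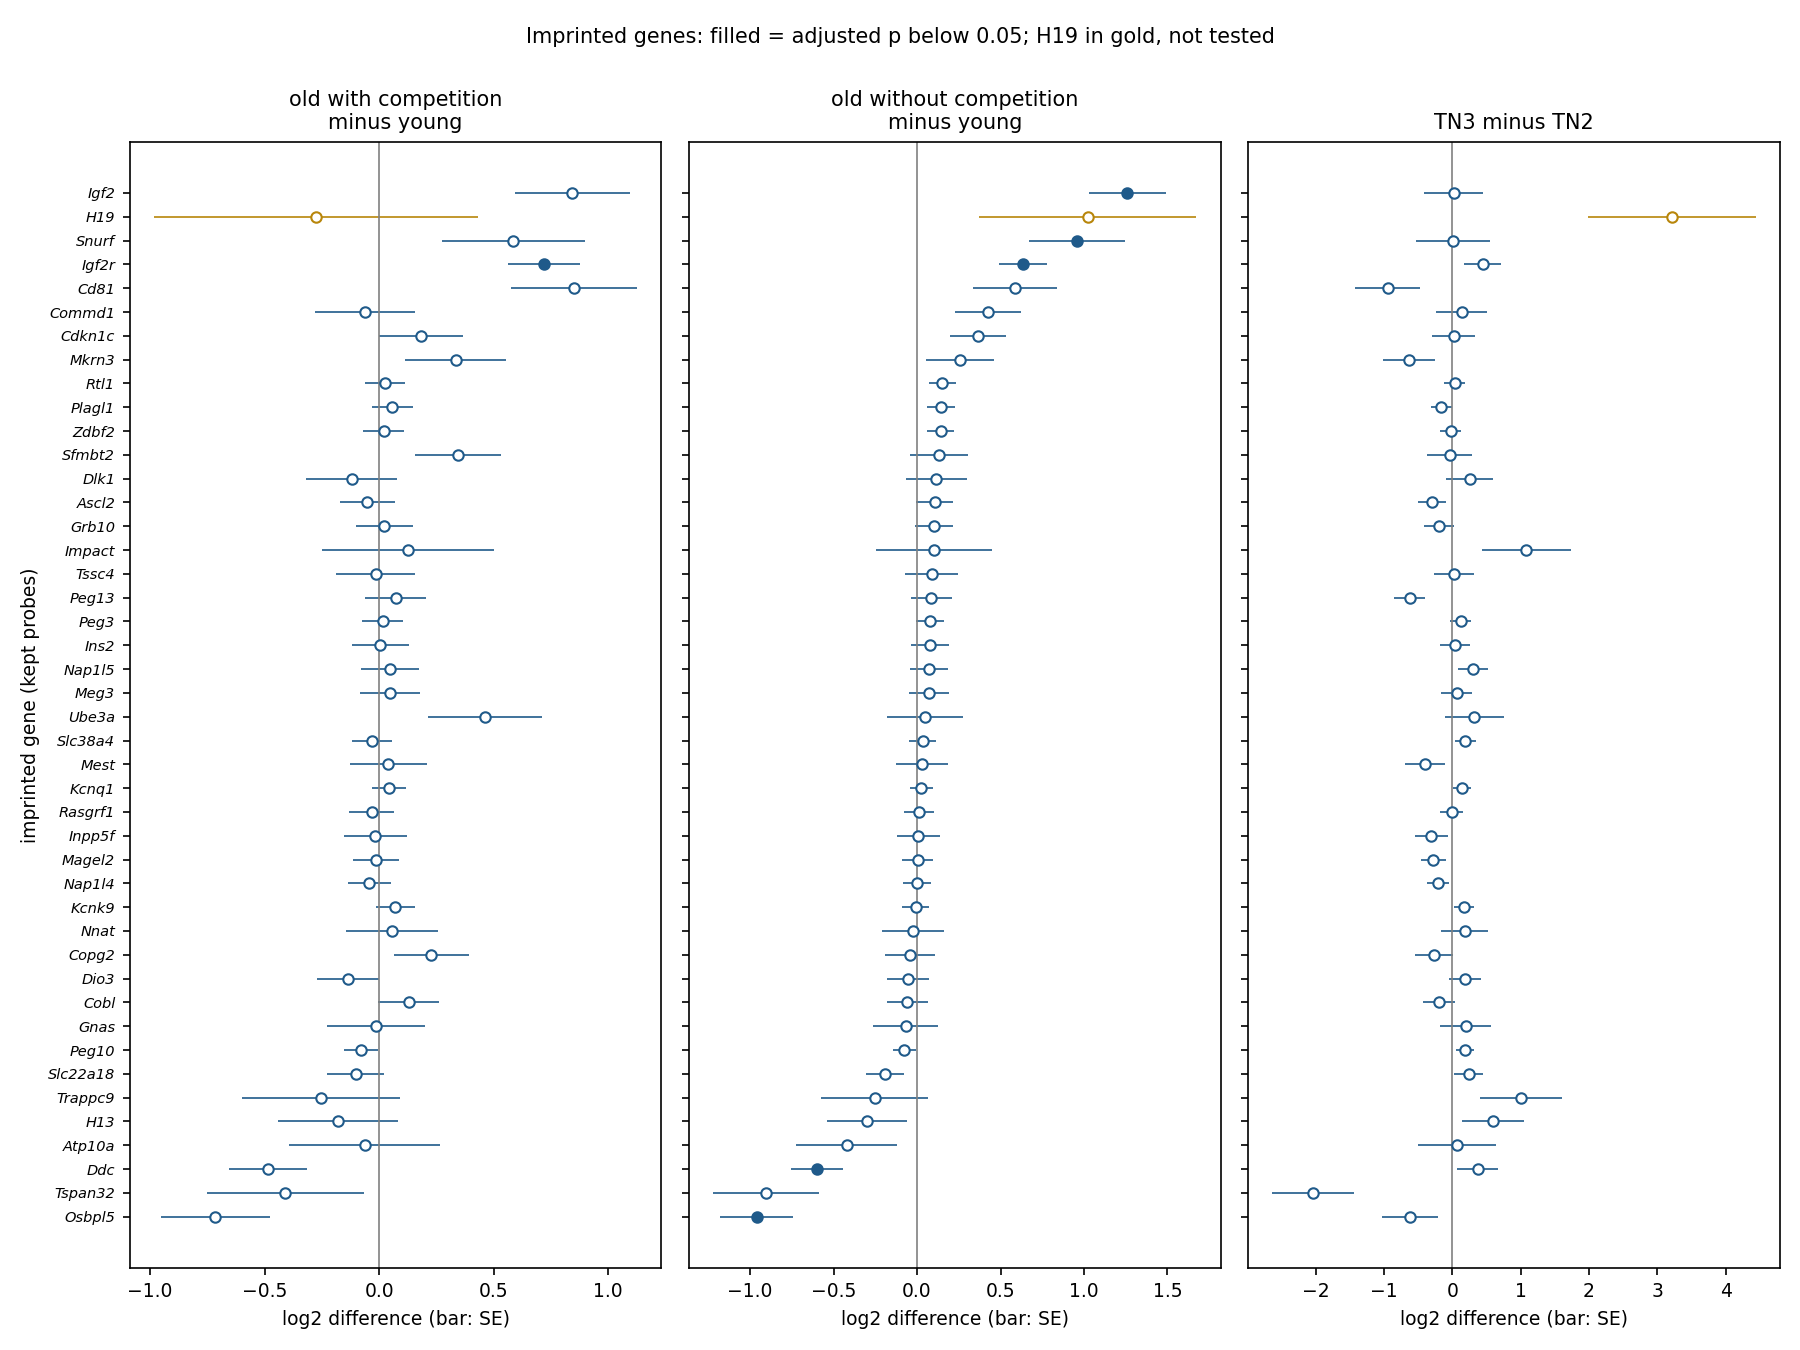
Log2 differences with SE bars for the 44 measured imprinted genes in 3 comparisons, ordered by the difference between old cells without competition and young cells. Filled points have an adjusted p below 0.05 and H19 (gold) was not tested; Igf2, Snurf and Igf2r are the filled genes to the right of 0 in the middle panel, and Osbpl5 and Ddc those to the left.

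Along the imprinted region of chromosome 7 that holds H19, 15 listed genes were taken in their order on the chromosome, a set chosen after values had been seen. Of the 12 measured ones, H19, Tssc4, Nap1l4 and Osbpl5 were detected on all 25 arrays, Cd81 on 24, Ascl2 on 20, Igf2 and Tspan32 on 14, Slc22a18 on 10, Cdkn1c on 9, Ins2 on 4 and Kcnq1 on 3. Tspan32 averaged 5.24 in the young group, 4.84 and 4.34 in the old groups with and without competition, 6.13 in TN2 and 4.09 in TN3. Cd81, a tetraspanin, was at 5.81, 6.66, 6.39, 5.61 and 4.67 in the same order. Neither was called in the 4 comparisons. Without array 6, old cells with competition averaged 4.42 for Tspan32, which then fell against young cells (-0.83 ± 0.22, adjusted p = 0.0331), and 6.41 for Cd81 (0.60 ± 0.24, adjusted p = 0.194).

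Genes that act with the members were read from 3 further lists. Of 12 measured genes of the IGF system, 2 rose and 1 fell in old cells with competition against young cells, 3 rose and 1 fell in old cells without competition, 0 changed between the old groups and 1 fell in TN3 against TN2. The shares of all genes called in these comparisons were 2.92%, 8.93%, 1.24% and 1.17%. Without array 6, 3 rose and 1 fell in the first comparison (4.14% of all genes), with Igf2 as the added gene, and 0 changed between the old groups. The falling gene was Igfbp4, which encodes a secreted protein that binds IGFs, in all 3 cases. It averaged 7.17 in young cells, 4.36 in old cells with competition (-2.81 ± 0.23, adjusted p = 2.92e-08, or -2.78 ± 0.24 without array 6) and 4.66 in old cells without competition (-2.52 ± 0.21, adjusted p = 4.12e-08). It was detected on 4 of 6 and 4 of 9 arrays of these old groups, near the detection limit. The sizes depended on the processing, from -3.04 to -1.20 with competition and from -2.85 to -1.12 without competition, all of them called. The averages of the progenitor and myeloid markers given above were lower in the same groups. Igfbp4 was higher in TN2 than in TN3, as were the averages of the progenitor, myeloid, erythroid and NK and gamma-delta T cell markers. The part of these cell types in the Igfbp4 differences was not tested.

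Igfbp4 was at 7.68 in TN2 and 4.73 in TN3 (-2.95 ± 0.39, adjusted p = 0.000157), and this last call was not made when only those 4 arrays entered the fit (adjusted p = 0.171). The rising genes were Igf2r, Igf2 and Igf2bp3, which encodes an RNA-binding protein named for Igf2 messenger RNA. Igf2bp3 rose from 7.03 in young cells to 8.07 with competition (1.03 ± 0.23, adjusted p = 0.0101, or 0.95 ± 0.24 without array 6) and 7.93 without competition (0.90 ± 0.21, adjusted p = 0.00776). With only those 2 groups in the fit, the first of these had an adjusted p of 0.0539, and with scaling to a common median the second was 0.35 (adjusted p = 0.254).

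Of 6 measured CDK inhibitors, the family of Cdkn1c, 2 fell in old cells with competition and 1 in old cells without competition, and none rose, beside 2.92% and 8.93% of all genes called in either direction. Without array 6 the first count was also 2. Cdkn1a, which encodes p21, averaged 7.34 in young cells, 5.52 with competition (-1.83 ± 0.36, adjusted p = 0.00333, or 5.79 and -1.56 ± 0.33 without array 6) and 5.93 without competition (-1.41 ± 0.33, adjusted p = 0.00742). Cdkn2c, which encodes p18, fell by 0.71 ± 0.19 with competition (adjusted p = 0.0412). Only the fits without young array 1 and without array 6 kept that call among the 12 that left out 1 array (adjusted p up to 0.121).

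Of 8 measured factors of imprint maintenance, Ctcf, whose protein binds the H19 control region, was the 1 gene that changed, in the 2 comparisons of old cells without competition, where 8.93% and 1.24% of all genes were called. Its averages were 7.63 for the young group, 7.65 for old cells with competition and 7.25 for those without. The difference between old cells without competition and young cells was -0.38 ± 0.09 (adjusted p = 0.00916), and against old cells with competition it was -0.41 ± 0.09 (adjusted p = 0.0267), or -0.37 ± 0.09 without array 6 (adjusted p = 0.0423). The second call was lost without array 2 or 4 of old cells with competition, or array 6 of old cells without competition (adjusted p up to 0.0680).

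The genes whose level was most like that of H19 over the 25 arrays were Tcrg (Pearson r = 0.93), Rrp1b (0.90), Pld4 (0.90), Dtx1 (0.88) and Ccdc18 (0.87). The most unlike were Cd52 (-0.84), Stk4 (-0.83), Tspan32 (-0.82), and the probes annotated Laf4 (-0.80) and SPARC (-0.80). The arrays share their groups, and array 6 and the TN2 arrays are far from the rest, so these values are a description. Tcrg, a transcript of the T cell receptor gamma locus, was at 4.28 on array 6, 8.43 in young cells, 9.24 in old cells without competition, 6.29 in TN2 and 9.51 in TN3.

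Within groups the list was a different one. Over the 24 arrays without array 6 and with group means subtracted, the most like H19 were Tlr2 (0.84), Mllt10 (0.82), Sin3b (0.81), Cacna2d3 (0.80) and Cdk17 (0.77), and the most unlike were Erich3, Epha6 and Ifrd1 (-0.77 each), Zfp106 and C1qbp (-0.76 each). The TN2 arrays lay far apart in H19 (SD 1.27, against at most 0.42 in the other groups without array 6), so they weigh heavily in this measure. Tlr2, Epha6 and Erich3 had group means of 4.19 to 4.62, near the detection limit. These values too are a description. Tcrg had r = 0.38 on that measure. Igf2 had r = 0.54 with H19 over 25 arrays and 0.18 within groups, and Igf2r -0.08 and -0.20.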

How the data were processed

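Mouse thymocyte RNA was amplified to biotin-carrying cRNA for Illumina arrays, per the labels' protocols. The authors deposited a linear intensity for each of 46237 probes on 25 arrays of 5 chips, with no background subtracted, as the values show. A detection p-value stood beside each deposited intensity, from a test that no source used here names. The authors also deposited a quantile-normalized log2 table, used as an alternative. Intensities were background-corrected from the detection p-values and quantile normalized with neqc (limma 3.58.1, R 4.3.3, offset 16). Probes with a detection p-value below 0.05 on at least 3 arrays were kept. Gene names came from the platform table, updated through RefSeq (35784 probes named, 10453 not). The kept probe with the highest mean stood for its gene, which left 15533 genes.

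One limma model over all arrays gave each group a mean, with chip as random block (statmod 1.5.0, correlation 0.00457). Tests were two-sided, adjusted by Benjamini and Hochberg over all genes, with 0.05 as the limit for genes said to rise, fall or pass. On simulated data with 200 changed genes among 15533, 80.6% of 2-fold changes were found for old cells with competition against young cells, 88.1% for old cells without competition against young cells, 91.0% between the old groups and 31.3% for TN3 against TN2. The changes were added to normalized values with independent normal noise and no chip effect. These shares therefore cannot speak for the dim members, whose differences are drawn together, or for differences between chips. Named genes were the members, every called gene of 5 lists, and the 5 most and 5 least like H19 on each of 2 measures. Further imprinted genes and single cell type markers were named after their values were seen. The members and lists were chosen with earlier results of these data known. Nothing in the labels ties the arrays of a group to separate mice, and p-values reflect only the spread among the arrays, which may be technical. The number of arrays limits the precision.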

Additional observations from a re-analysis of the deposited data

Results flagged for a closer look

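For the members and called list genes other than H19, whose low array was a reason for choosing it, the highest and lowest array of each gene was compared with the rest in 45 groups of 4 to 10 arrays. In 7 groups a single array stood farther from the others than a Dixon test at 95% allows. For independent groups of normally spread values, about 1 in 20 would pass that limit. Cdkn1c, Dlk1, Peg3 and Mest lie near the detection limit, and groups of different genes share arrays. An excess over chance can therefore not be read from these counts. Array 6 of old cells with competition accounted for 3 of the 7: Cdkn1a at 4.16 (5.50 to 6.26 on the other 5 arrays), Igf2r at 9.32 (8.07 to 8.53) and Cdkn1c at 5.14 (4.11 to 4.36). In the same group Peg3 was at 4.41 on array 4 (4.16 to 4.22 on the rest). In old cells without competition Dlk1 was at 5.86 on array 3 (4.13 to 4.32) and Mest at 5.21 on array 8 (4.12 to 4.55). In young cells Osbpl5 was at 6.63 on array 1 (7.34 to 7.66). The causes were not tested.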

How the results depend on the processing

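Of 441 recomputed differences of single genes with a test, 400 kept their direction and their side of the threshold. Of 160 recomputed counts of called genes, 148 stayed within 1.5 times the count reported. With arrays scaled to a common median, the median of all genes shifted by -0.20 in old cells without competition against young cells and by -0.22 against old cells with competition. The called genes then went from 1387 (493 higher, 894 lower) to 3950 (113 higher, 3837 lower) in the first, from 193 (64 higher, 129 lower) to 3425 (42 higher, 3383 lower) in the second, and from 181 (59 higher, 122 lower) to 84 (15 higher, 69 lower) in TN3 against TN2. Array weights gave 1077 (375 higher, 702 lower) in place of 454 (65 higher, 389 lower) in old cells with competition against young cells, and 2167, 577 and 82 in the other 3. With only the compared groups in the fit, old cells without competition against young cells gave 2142 and TN3 against TN2 gave 0, with 1311 genes at an unadjusted p below 0.05 by limma; the chip block could not be estimated there.

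Leaving out 1 array at a time gave 331 to 643 called genes in old cells with competition against young cells, 1025 to 1450 without competition against young, 108 to 337 between the old groups (119, 108 and 337 on leaving out arrays 1, 4 and 6 of the group with competition) and 127 to 193 in TN3 against TN2. No paired analysis was possible because the labels give the arrays no replicate numbers that would tie 1 array to another. With the chip as a fixed term, 489 genes were called in old cells with competition against young cells and 206 in TN3 against TN2; Igf2r was called in the first (0.72, adjusted p = 0.0114) and Igf2 was not (0.84, adjusted p = 0.108).

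The H19 gap of array 6, -6.04, was -3.99 with no background correction, -4.03 in the deposited log2 table, -6.40 with median scaling and -5.02 on the other probe, whose signal on array 6 is background. The cause of these moves was not tested. H19 in old cells with competition minus young cells, -0.27, was 0.03 with no background correction, 0.02 in the deposited table, 0.09 with the mean of its probes and 0.53 with array weights. Igf2 in old cells without competition against young cells, 1.26, was 0.40 with no background correction and 0.41 in the deposited table, still called. Igf2 in old cells with competition against young cells, 0.84, was not called in the main fit. It passed with median scaling (1.02, adjusted p = 0.0249), with array weights (0.95, adjusted p = 0.00278) and without array 6, and in no other alternative. The Igf2r difference between the old groups, -0.09, changed sign to 0.11 with the mean of its probes, 0.026 with array weights and 0.068 without array 6 (-0.18 to 0.068 over all single omissions), and was -0.62 with median scaling (adjusted p = 0.00494). The Igf2 difference between TN3 and TN2 was 0.018 and became -0.042 without TN2 array 1 or TN3 array 2 (-0.042 to 0.079 over all 4 omissions). Without the detection filter Snurf (adjusted p = 0.0590) and Cdkn2c (adjusted p = 0.0659) were not called. Cdkn1c, Grb10, Dlk1, Peg3 and Mest had 0 calls under every alternative run. They lie near background, where differences are drawn together.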
